A study of Drosophila melanogaster with 2 samples.

Results

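Away from promoters, the tagged CG9932 protein was recovered at 812 sites in sequence between genes, out of 6790 conservative peak summits on the chromosome arms (12.0%, Wilson 95% interval 11.2 to 12.8%). A site was kept when its summit, the base of highest pile-up in a peak, lay in no annotated gene of any kind and over 500 bp from every protein-coding transcription start site (TSS). These intergenic summits are set beside the 3467 promoter summits, which lie within 500 bp of a coding TSS (51.1% of all), and the other 2511 summits, which lie in genes away from promoters (37%). The rule used positions only, so signal, presence in each replicate, sequence and neighbouring genes were free to vary.

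The material was 1 group of 2 biological replicates of whole Drosophila melanogaster embryos from the transgenic strain CG9932-GFP. Their age is taken as 8 to 24 h from the source name, since a separate age label gives a count of hours well outside embryonic life. The strain's CG9932-eGFP fusion was pulled down with an antibody against GFP after sonication to fragments of 200 to 800 bp, and the DNA was sequenced (ChIP-seq). The strain's source label describes an insertion aimed at CG9932, a gene annotated as encoding a predicted zinc-finger protein, and whole embryos mix all tissues. No untagged or input sample was analysed here, no read depth is given, and with 1 group the data hold no contrast between conditions, so every result is a count or share whose interval covers counting error only. Intergenic DNA holds enhancers, which act on genes at a distance, insulators, which limit that action and are bound in flies by factors such as CTCF and Su(Hw), starts of non-coding transcripts, and the stretches past gene 3′ ends where transcription terminates. Promoters of broadly used fly genes carry their own set of short elements, among them the DNA replication-related element (DRE), Motif 1 and the BEAF-32 site.

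Of 16 motifs searched, the CTCF core, AGGNGGCGC on either strand, was the only one more frequent at intergenic summits than at both promoter and other summits with both intervals above 0. Over 1000 bp from a coding TSS this contrast with the other classes was not clear, as given below. The core is shown first, at 3 sites that hold it within 50 bp of the summit and have signals of 789, 440 and 327. Other sites with the core, some of higher signal than the last of these, are not printed. Each line gives the flanking protein-coding genes, the position on dm6 and the plus strand 5′ to 3′, 50 bp either side of the summit, with the CTCF core in capitals.
soti/cv-c, chr3R:14391375-14391475: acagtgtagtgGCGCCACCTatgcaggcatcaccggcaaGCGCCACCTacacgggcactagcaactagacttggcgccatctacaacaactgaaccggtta
jp/brwl, chr2L:9567447-9567547: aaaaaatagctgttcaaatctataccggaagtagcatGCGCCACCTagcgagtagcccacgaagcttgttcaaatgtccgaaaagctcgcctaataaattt
Jhbp1/CG14662, chr3R:4970783-4970883: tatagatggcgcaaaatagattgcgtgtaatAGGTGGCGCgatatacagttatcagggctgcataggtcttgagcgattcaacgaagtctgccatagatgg
The site between soti and cv-c, 258 bp past the 3′ end of cv-c, which encodes a RhoGAP, held the core on the minus strand at 2 places within 50 bp of its summit. A second feature was a set of 7-base sequences more frequent at the summit than 500 bp away. Of the first 10 of them, 4 hold CACTG. Some are not separate from the CTCF core: GGCGCCA overlaps it at soti/cv-c and CACCTAG at jp/brwl. The next 4 lines show strong sites that hold one of the 10 leading sequences, in capitals.
C15/sp3, chr3R:21520314-21520414: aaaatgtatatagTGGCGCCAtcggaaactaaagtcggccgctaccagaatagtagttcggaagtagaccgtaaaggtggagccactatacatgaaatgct
CG13970/CG10651, chr2L:20121002-20121102: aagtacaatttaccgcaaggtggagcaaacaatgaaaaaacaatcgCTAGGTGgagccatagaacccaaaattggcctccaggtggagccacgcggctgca
Dip-B/tal-AA, chr3R:13800490-13800590: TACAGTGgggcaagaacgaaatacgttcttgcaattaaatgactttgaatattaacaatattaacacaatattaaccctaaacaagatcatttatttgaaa
phu/RhoL, chr3R:9496883-9496983: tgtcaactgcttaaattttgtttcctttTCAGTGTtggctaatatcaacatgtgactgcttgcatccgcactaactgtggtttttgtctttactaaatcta
The capitals in the C15/sp3 line come from GGCGCCA and those in the CG13970/CG10651 line from CACCTAG read on the other strand, while the last pair hold CACTGTA and ACACTGA on the minus strand, both of which carry the 5 bases CACTG.

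The strongest intergenic summit lay upstream of foxo, which encodes the forkhead transcription factor of insulin signalling. It was at 14053604 on 3R, 3341 bp from the nearest foxo TSS, with signals of 1380 (replicate 1's own set) and 923 (replicate 2's own set), and it ranked 35 of all conservative summits with a signal of 2297. Signal is the value of the authors' peak caller, whose scale is not given, and it only orders peaks within a list. A weaker summit with a signal of 800 lay 1208 bp further from foxo, and both foxo sites were in both replicates. The next site, at 493998 on X, had signals of 1231 and 1002 in these sets. It sat in a gap of 1118 bp between the 5′ ends of CG17896 and CG17778, 503 bp from a coding TSS, so it only just met the rule.

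Several of the strongest sites lay at the start of long non-coding RNA genes. A summit on 3R was 114 bp from the 5′ end of lncRNA:CR31044, with signals of 1052 and 755 in replicates 1 and 2. On 2R, a summit between Psc, a Polycomb group gene, and lncRNA:CR44339 was 176 bp from the 5′ end of the RNA gene, with signals of 820 and 655. Its neighbour Su(z)2, which encodes a relative of Psc, had a summit 27432 bp from its end, with signals of 732 and 600. A site 94 bp from the 5′ end of Uhg4, a host gene of small nucleolar RNAs, had signals of 447 and 340.

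Other strong sites lay far from any coding TSS. In a gap between lncRNA:CR44603 and lncRNA:CR45695, whose nearest coding genes are RFeSP and chinmo, chinmo encoding a BTB zinc-finger protein of neural temporal identity, 3 summits were among the 25 strongest found in both replicates. They had signals of 726, 671 and 654 in replicate 1 and of 659, 529 and 373 in replicate 2, at 18424, 12486 and 7789 bp from the chinmo TSS. A summit in the gap upstream of CG9932 itself lay 23690 bp from that gene, with signals of 770 and 519. The strongest site over 10 kb from every gene end lay between NijA and CG43245 (546 and 415), 19113 bp from CG43245, and the third of that kind was 21496 bp past the 3′ end of vvl, which encodes a POU-domain factor (194 and 135). Replicate 1's value was the higher one at each of the 25 sites, and the lists are not scaled to each other.

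**Figure D1:**
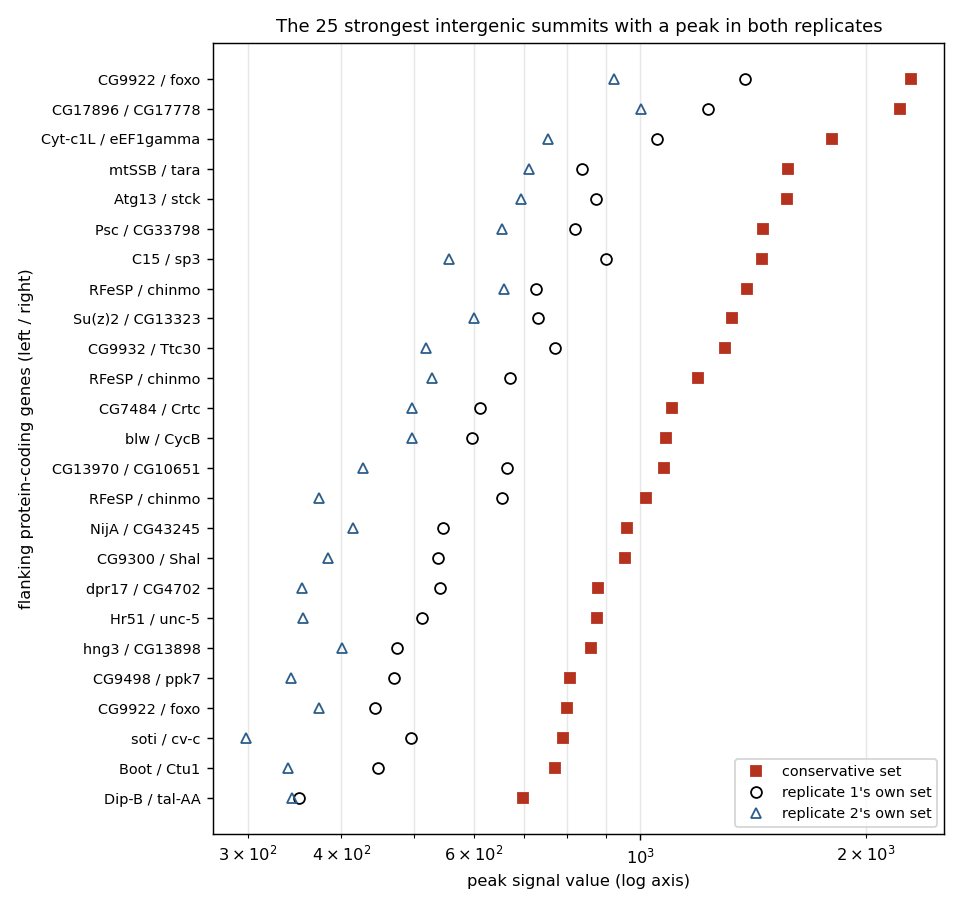
Signal values (log axis) of the 25 strongest intergenic summits present in both replicates' own sets, named by their left and right flanking coding genes, in the conservative set (squares) and in the sets of replicate 1 (circles) and replicate 2 (triangles). The conservative values run from 2297 upstream of foxo to 698 between Dip-B and tal-AA, and each circle lies right of its triangle.

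Most intergenic summits were much weaker than these. Their signal had a lower quartile of 91.3, a median of 121 and an upper quartile of 212, against 126, 216 and 399 at promoter summits and 91.1, 125 and 218 at the other summits in genes. Of the intergenic summits 116 (14.3%) were in the highest 25% of all conservative summits by signal, against 33.9% of promoter summits and 16.2% of other summits in genes. In the lowest 25% the shares were 36.1%, 14.8% and 35.6%. These sites were about as strong as sites inside genes and weaker than promoters. The median width of the peaks was 370 bp in all 3 classes.

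In both replicates' own sets a peak was found for 364 intergenic summits (44.8%, interval 41.4 to 48.3%), against 58.8% of all conservative summits. The share was 26.1 percentage points below that of promoter summits (70.9%; interval of the difference -29.8 to -22.3) and 1.77 points below that of other summits in genes (46.6%; -5.68 to 2.18), an interval that includes 0. A further 154 intergenic summits were only in replicate 1's set, 53 only in replicate 2's and 241 (29.7%) in neither. Nearly all were nevertheless in each replicate's longer ranked list, 807 in replicate 1 and 810 in replicate 2.

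Split by signal, intergenic and promoter summits stood apart in the weakest band and had overlapping intervals in the others. In the highest 25% of all summits by signal, 115 of 116 intergenic summits (99.1%) were in both sets, against 99.2% of promoter and 99.8% of other summits, and in the 25% after it 91.9%, 90.3% and 92.4%. Peaks this strong were nearly all within both sets' thresholds, so these bands left little room for the classes to differ. In the next 25% the shares were 35.8%, 38.5% and 36.4%. In the lowest 25%, 15 of 293 intergenic summits (5.12%, 3.13 to 8.27%) were in both sets, against 14.8% of promoter and 4.14% of other summits. Base composition moved with strength too. The windows of 100 bp either side had a median of 64.2% A and T in the strongest 25% of intergenic summits and 52.2% in the weakest 25%, and the part of base composition in these shares was not tested.

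**Figure D2:**
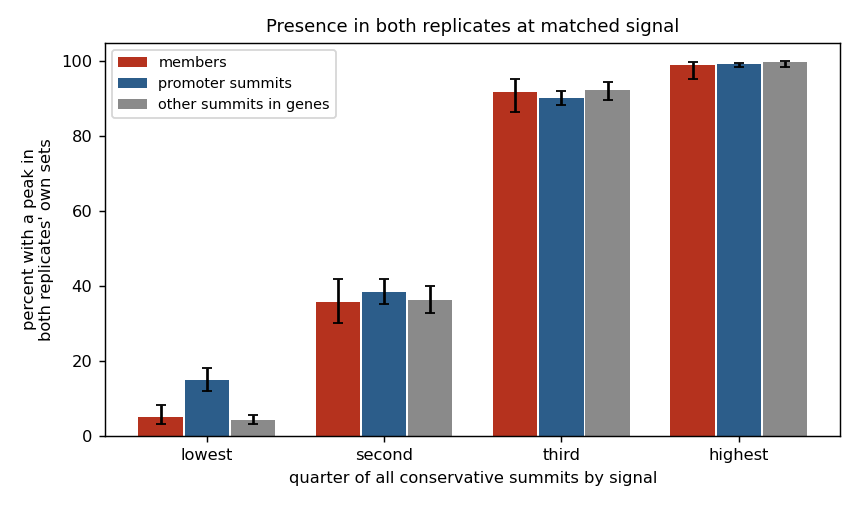
Percent of summits with a peak in both replicates' own sets, in 4 bands of 25% of all conservative summits ordered by signal, for intergenic summits (red), promoter summits (blue) and other summits in genes (grey); error bars are Wilson 95% intervals. The 3 classes lie within 3 points of one another in the upper 3 bands, while in the lowest the intergenic share is 5.12% and the promoter share 14.8%.

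Intergenic summits kept close to genes. The rule leaves 33.1 Mb of eligible sequence, the known bases in no gene and over 500 bp from a coding TSS, which is 24.8% of the arms, and the shares of these bases serve as background. Of the intergenic summits 133 (16.4%, 14 to 19.1%) were 500 to 1000 bp from a coding TSS, against 6.05% of eligible bases, and 164 (20.2%, 17.6 to 23.1%) were over 10 kb away, against 43.7%. The median distance to a coding TSS was 3423.5 bp for the summits and 7973 bp for the bases. The summits of the replicates' ranked lists that met the same rule, most of which passed no threshold, fell between, with medians of 6380.5 and 6693 bp. Gaps between genes were likewise shorter where a summit lay, with a median of 6768.5 bp against 13780 bp over eligible bases, and 17 summits (2.09%) lay in gaps over 50 kb, against 13.2% of the bases.

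Gene 3′ ends shared in this closeness but did not lead it. A 3′ end, of a gene of any kind, lay within 500 bp of 135 summits (16.6%, 14.2 to 19.3%), against 10.3% of eligible bases and 8.34% and 8.27% of the rule-passing summits of the ranked lists of replicates 1 and 2. Within 200 bp the count was 55 (6.77%, against 4.83% of bases). The nearest gene end was a 3′ end for 387 summits (47.7%, 44.2 to 51.1%), below the 51.5% of bases. Ends of protein-coding genes were the nearest end in 61.3% of summits, the 5′ end in 256 (31.5%, against 22.7% of bases) and the 3′ end in 242 (29.8%, against 25.6%). Summits within 500 bp of a 3′ end were in both replicate sets in 54.1% of cases (45.7 to 62.3%) and the rest in 43% (39.3 to 46.7%), with median signals of 139 and 117.

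The strongest of the summits within 200 bp of a 3′ end lay 2 bp past lncRNA:CR44676 on 3L, between CG9300 and Shal, which encodes a potassium channel (signals of 538 and 384 in replicates 1 and 2). The next lay in a gap of 377 bp between the facing 3′ ends of phu and RhoL, which encodes a small GTPase, 168 bp from RhoL (337 and 305). It is the last of the printed sites above. The third lay between the pseudogene CR31958 and bark (353 and 250).

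Boundaries between convergent genes, whose 3′ ends face each other, held fewer summits than their share of sequence. There were 157 (19.3%, 16.8 to 22.2%) in convergent gaps, against 23.4% of eligible bases, while 230 (28.3%, 25.3 to 31.5%) were in divergent gaps, where 5′ ends face each other, against 22.5%. Gaps between genes in tandem held 425 (52.3%), against 52.5% of bases. The divergent share was above the base share under all alternatives tried, but the convergent deficit was not firm: with the optimal set in place of the conservative one it was 21.3% (18.7 to 24.1%), an interval that includes the 23.4% of bases, as did the intervals over 1000 bp from a coding TSS (22.5%, against 24.3%), in replicate 1's own set (20.9%), with protein-coding genes alone ending a gap (19.6%, against 21.9%) and in the stronger 50% of peaks (19.2%, 15 to 24.3%). The strongest convergent sites were the one past Su(z)2, one between CG7484 and Crtc, a coactivator of CREB, with signals of 612 and 497, and one between blw, the alpha subunit of ATP synthase, and CycB, which encodes cyclin B, with signals of 597 and 497 and 554 bp past CycB. Signal differed little by orientation, with medians of 119 in convergent, 124 in divergent and 120 in tandem gaps.

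**Figure D3:**
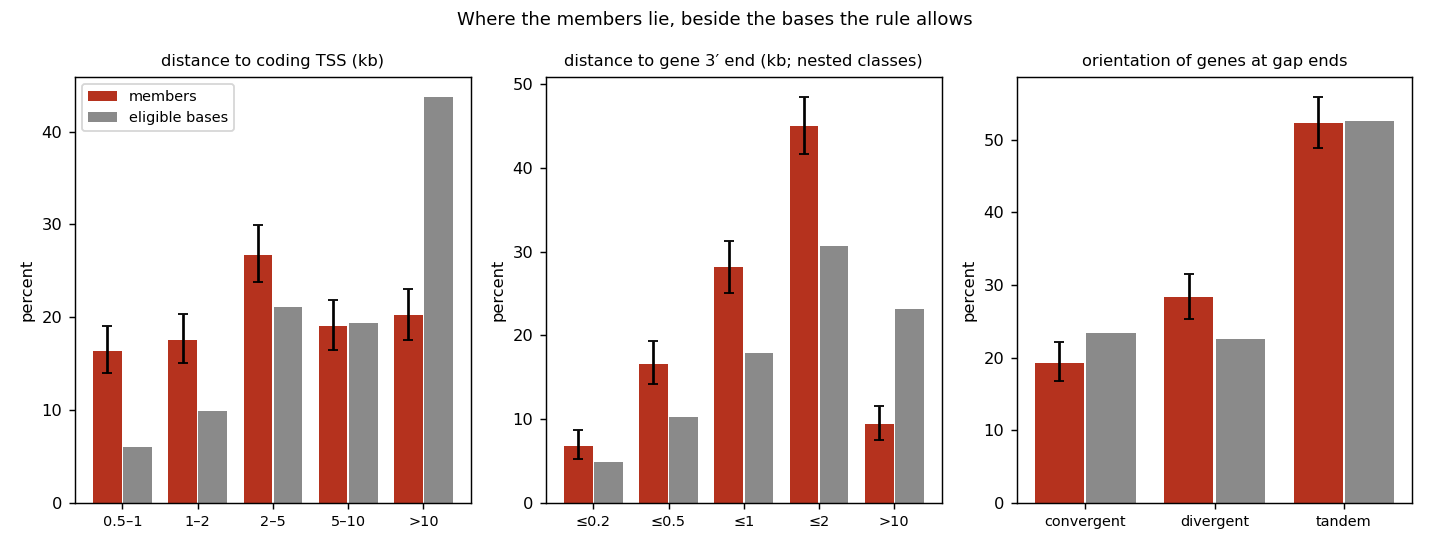
Percent of intergenic summits (red, with Wilson 95% intervals) and of eligible bases (grey) by distance to the nearest coding TSS, by distance to the nearest gene 3′ end (classes nested) and by the orientation of the genes at the ends of the gap. Summits exceed bases up to 5 kb from a TSS and fall to 20.2% against 43.7% beyond 10 kb, and the divergent bar (28.3%) exceeds its bases (22.5%).

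Among the genes nearest to these summits, genes of the biotype ncRNA, which includes the long non-coding RNAs, were nearest for 213 (26.2%, 23.3 to 29.4%), against 19.3% of eligible bases. It was the 5′ end of such a gene in 119 cases (14.7%, against 9.04%) and the 3′ end in 94 (11.6%, 9.55 to 14%, against 10.3%). Counting every non-coding RNA gene and pseudogene, the share was 229 (28.2%, 25.2 to 31.4%, against 22.3%). For the rule-passing summits of the ranked lists, ncRNA genes were nearest in 23.6% of cases in each replicate. With every non-coding RNA gene and pseudogene it was 25.4% and 25.7% in replicates 1 and 2. All these shares lie within the intervals of the intergenic summits. The excess over eligible bases depended on transposable elements, 5809 of which the annotation lists as genes on the arms. They were nearest for 85 summits (10.5%), against 29.4% of bases. Of the rule-passing summits of the ranked lists, they were nearest for 19.4% in replicate 1 and 20.5% in replicate 2. Once they were not counted as genes, the non-coding share was 31.7% of summits against 30.8% of bases. Transfer RNA genes were nearest for 10 summits (1.23%, 0.67 to 2.25%), an interval that includes the 0.935% of bases. Small nucleolar RNA genes were nearest for only 2 (0.246%, 0.0676 to 0.894%, against 0.0245% of bases). The strongest of these small-RNA sites lay 2270 bp from a tRNA gene for phenylalanine, between Dip-B and tal-AA (351 and 344).

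Some intergenic summits lay crowded in a few regions, though most stood alone in their gap. They occupied 620 of the 9375 gaps with eligible sequence (6.61%), of which 499 held a single summit, 84 held 2 and 37 held 3 or more, the last with 145 summits. Density ran from 20.6 per eligible Mb on 2R through 22.8 on 3R, 25.1 on X and 26.6 on 3L to 28 on 2L, and chromosome 4, with 0.111 Mb of eligible sequence, had none.

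The most summits close together lay in a stretch of 193 kb on 3L, chr3L:11256319-11449080, from scyl, which encodes an inhibitor of TOR signalling, to CG12289. It spans the largest run of intergenic summits at most 20 kb apart and its neighbour, the next largest. A density above that of the arms follows from this choice. The stretch held 48 intergenic summits (5.91% of all), or 319 per eligible Mb against 24.5 over the arms, and 1 promoter summit. Their signals ran from 30.7 to 673 with a median of 114, and 22 (45.8%) were in both replicate sets, close to the share over all intergenic summits. Within it, the gap between lncRNA:CR44363 and CG7560 held 10 summits, the most of any gap, of which 3 were in both sets. The gap past scyl, 8.35 kb long, held 7, of which 5 were in both sets. CACTG was at 25 of the 48 (52.1%), close to the 49.3% of all intergenic summits. None held the CTCF core, against 2.83% of all, and 48 summits are too few to tell 0 from that share.

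The gap between lncRNA:CR44603 and lncRNA:CR45695 held 8 summits in 20.9 kb, 6 of them in both sets, with a median signal of 501, and 10 summits lay in all between the coding genes RFeSP and chinmo, 7 of them in both sets. That between NijA and CG43245 held 8 in 75 kb, 5 in both sets. The gap upstream of CG9932, 29.7 kb long, held 6 with signals of 80.1 to 1299, of which only the strongest, described above, was in both sets. By flanking gene, Dyro had 17 summits beside it, CG7560 15 and scyl 14, while hry, a pair-rule repressor, and tara each had 9, noc 7 and Psc 6.

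Next to these summits stood 1050 protein-coding genes, the nearest on each side, which are 7.53% of the 13945 on the arms and 13% of the 8086 that border eligible sequence. Of the flanking genes 312 (29.7%, 27 to 32.5%) had a promoter summit of their own, against 29.9% of all coding genes and 26.4% of those that border eligible sequence. For 392 summits (48.3%) neither flanking gene had a promoter summit, for 334 one had and for 86 both had. Summits between 2 such genes were in both replicate sets in 55.8% of cases (45.3 to 65.8%) and those between none in 39.3% (34.6 to 44.2%), with median signals of 156 and 109.

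Patterning genes flanked summits more often than coding genes at large, and they border more intergenic sequence, with 0.819 of the 33.1 eligible Mb beside the segmentation list alone. Of 29 segmentation genes 13 (44.8%) flanked a summit, of 44 homeobox genes of tissue identity 17 (38.6%), of 8 Hox genes 3 (37.5%) and of 31 genes for signalling ligands 10 (32.3%), against 7.53% of all coding genes. Per eligible Mb beside the list's genes the numbers were 34.2, 21.8, 32.1 and 28.6, against 24.5 over the arms, so the shares of genes stood further from their background than the densities. The strongest site beside a segmentation gene lay between nej and btd, a head gap gene, with a signal of 671 in the conservative set. It was 734 bp from nej and 6386 bp from btd. The next lay 4448 bp from Wnt4, on its side toward wg (401). Among homeobox genes the strongest lay between C15 and sp3 (1452), 7550 bp from C15 and 564 bp from sp3. The next lay between CG14762 and Optix (653), 661 bp from CG14762 and 16867 bp from Optix. Among Hox genes they lay 8338 bp from abd-A (530) and 26671 bp from Antp (94, in replicate 1 alone). The ligand list was led by vn, an EGF receptor ligand, at 24151 bp (517), and Wnt4. The vn site lay closer to CG5568, at 1686 bp.

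Lists of differentiated tissues varied around the background of 7.53% of genes and 24.5 summits per eligible Mb. In the muscle list 6 of 28 genes (21.4%) flanked a summit, at 63.6 summits per eligible Mb, led by lmd (546) and Act87E (161). In the list for epidermis, cuticle and trachea it was 5 of 20 (25%), at 33.2 per Mb, led by ple, which encodes tyrosine hydroxylase (399), and vvl (326). The glial list had 2 of 16 (nrv2, 252, and Gs2, 107), with 44.1 per Mb, the neuronal list 4 of 32 (futsch, 231, and Rim, 226), with 15.3, and the neural progenitor list 3 of 24, with 8.26. The strongest sites of the neural progenitor list lay beside pros (84.4) and klu (78.1), neither in a replicate set. The muscle and glial densities rest on 6 and 3 summits. Chemosensory receptor genes flanked summits at 16 of 179 (8.94%; 18.4 per Mb), with Gr89a at 631 and Or85b at 187, and ribosomal protein genes at 6 of 92 (6.52%; 15.6 per Mb), with RpS23 at 473, 138 bp away, and RpL17 at 363, 163 bp away. No insulator protein gene (of 15) or heat shock gene (of 15) did, and these lists border only 0.00342 and 0.00732 Mb of eligible sequence. A site counts for the nearest coding gene on each side, and the other flanking gene can be the closer. The ple site lay 4161 bp from ple and 195 bp from CG8519. The nrv2 site lay 2129 bp from nrv2 and 780 bp from nrv1. The Or85b site lay 27016 bp from Or85b and 5444 bp from CG45263. For futsch and Rim the closer genes were Rilpl, at 1561 bp, and cpo, at 586 bp. The list gene was the closer one for lmd, Gr89a, RpS23 and RpL17.

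The sequence at the summit differed from that 500 bp away. The CTCF core was found within 100 bp of 23 intergenic summits (2.83%, 1.89 to 4.21%), against 0.456% of flank windows and 0.326% of tiles of eligible sequence of the same width. The share was 1.65 percentage points above that of promoter summits (1.18%; 0.623 to 3.07) and 1.76 above that of other summits in genes (1.08%; 0.702 to 3.18). Both of these classes also held the core more often than their own flanks, which had it in 0.747% for promoter and 0.545% for other summits. A match is a description of letters and not of a bound factor. The Su(Hw) core, TGCATAC, was in 4.93% (3.64 to 6.64%), against 2.41% of flanks, 2.9% of tiles and 2.31% of promoter summits. Other summits in genes held it in 3.58%, a difference of 1.34 percentage points whose interval (-0.175 to 3.18) includes 0. GAGA elements, GAGAG, were in 23% (20.3 to 26%), against 19.7% of flanks, and the 20.4% of tiles and the 22.5% of promoter and 25.4% of other summits lay within that interval.

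The CTCF core was more frequent at the strongest sites and at those just outside promoters. In the strongest 25% of intergenic summits 13 of 203 held it (6.4%, 3.78 to 10.6%) and in the others 10 of 609 (1.64%, 0.894 to 3%). Of the summits 500 to 1000 bp from a coding TSS 12 of 133 held it (9.02%, 5.24 to 15.1%), against 0.446% of eligible tiles at that distance. Among all intergenic summits over 1000 bp from a coding TSS 11 of 679 held it (1.62%, 0.907 to 2.88%). That interval includes the 1.18% of promoter summits and the 1.08% of other summits in genes. The share was 2 of 143 (1.4%, 0.384 to 4.96%) at 1000 to 2000 bp and 3 of 217 (1.38%, 0.471 to 3.99%) at 2000 to 5000 bp. At 5000 to 10000 bp it was 6 of 155 (3.87%, 1.79 to 8.19%). These counts are small and their intervals overlap, so no trend among them can be read. Beyond 10 kb it was 0 of 164, where 3 counts would be a share of 1.83% and the Wilson upper bound is 2.29%, against 0.26% of tiles. After soti/cv-c, the strongest sites with the core were the one at Uhg4 described above, one 734 bp from nej on its side toward btd and one 661 bp from CG14762 on its side toward Optix. Of all 23 sites 17 were in both replicate sets.

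Promoter elements were scarcer than at promoter summits, as they were at other summits in genes. DRE, TATCGATA, was at 6 intergenic summits (0.739%, 0.339 to 1.6%), against 10.3% of promoter summits, a difference of -9.53 percentage points (-10.7 to -8.23). Its share in the flanks was 0.196%. The Motif 1 core, GGTCACAC, was at 3 (0.369%), against 5.83%, and the BEAF-32 core, CGATA, at 163 (20.1%), against 44.4% of promoter summits and 19.5% of the summits' own flanks. Other summits in genes held DRE in 0.279%, Motif 1 in 0.398% and BEAF-32 in 21.2%, and each interval of the difference to them included 0. Of the other 10 motifs searched (both strands, overlap between motifs allowed), the GATA site GATAAG was below its flanks (5.79%, 4.38 to 7.61%, against 9.71%), as was the homeodomain site TAATTA (12.3%, 10.2 to 14.8%, against 15.4%). Tiles held GATAAG in 7.96%, above the summits' interval, and TAATTA in 14.7%, within it. The flank share lay within the summits' interval for the Zelda site CAGGTAG, the AP-1 site TGANTCA, the Grainyhead site AACCGGTT, the E-boxes CAGCTG and CACGTG, the TATA box TATAAA, the poly(A) signal AATAAA and the tRNA B box GGTTCGA.

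**Figure D4:**
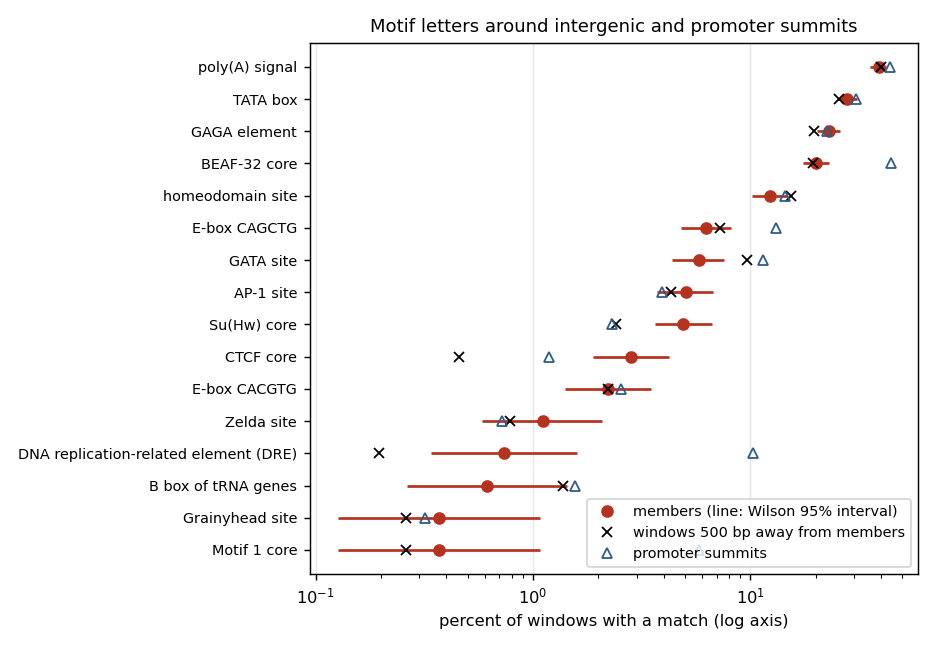
Percent of windows of 201 bp (log axis) that hold each motif, for intergenic summits (red points, lines are Wilson 95% intervals), windows centred 500 bp from them (crosses) and promoter summits (triangles). The CTCF core stands at 2.83% of intergenic summits and 1.18% of promoter summits, and DRE at 0.739% and 10.3%.

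Among 7-base sequences in at least 2% of intergenic summit windows, CACTGTA led by ratio to the flanks, in 6.77% against 1.3%. It was in 4.56% of promoter summits and 7.89% of other summits in genes. CACCTAG was in 3.08% against 0.587% of flanks, and in 0.952% of promoter summits. GGCGCCA was in 4.68% against 1.11%. Any of the 10 leading sequences was in 266 windows (32.8%) and in 8.41% of flanks, a contrast that their choice for this ratio fixes. Of the first 25 sequences 8 hold CACTG on either strand.

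Those 5 bases, singled out after their values were seen, were within 100 bp of 400 intergenic summits (49.3%, 45.8 to 52.7%), against 25.7% of flanks. Promoter summits (47.4%, flanks 33.8%) and other summits in genes (49.5%, flanks 28.1%) held them about as often. The difference was 1.84 percentage points to promoters (-1.97 to 5.66) and -0.241 to other summits (-4.19 to 3.71), both intervals including 0. By signal, CACTG was at 52.7% in the strongest 25% of intergenic summits (45.9 to 59.5%) and 48.1% in the others (44.2 to 52.1%). These intervals overlap, while those of the CTCF core given above do not. Its most filled bin lay 80 to 60 bp left of the summit, with 8.74% of summits, against a mean of 3.05% per bin of 20 bp beyond 200 bp. The pattern was on both sides, with 7.88% at 60 to 80 bp on the right and a lower 4.43% at 0 to 20 bp. Other summits in genes had 7.96% and 8.36% in the same left and right bins.

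**Figure D5:**
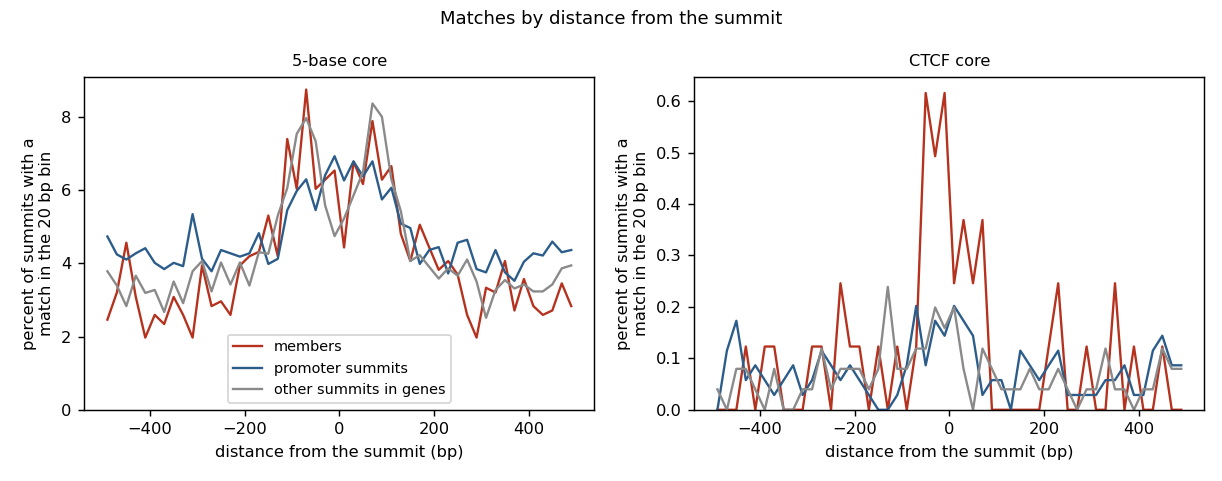
Percent of intergenic summits (red), promoter summits (blue) and other summits in genes (grey) with a match in each bin of 20 bp by distance from the summit, for CACTG (left) and the CTCF core (right). CACTG is raised within about 100 bp in all 3 classes. The CTCF core is above the flanks in all 3 classes too, by the most near intergenic summits, where its fullest bin holds 5 summits (0.616%).

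At the edge of the rule, the 3 members nearest to a coding TSS were the X summit between CG17896 and CG17778 at 503 bp (signal 2221), one at 505 bp near CG5973 (233.1) and one at 510 bp near CG10232 (151.6), all in both replicate sets. The nearest intergenic summits outside it were at 499 bp near Npc2b (332.9), at 495 bp (178.6) and at 494 bp near CG10710 (137.8, in replicate 1 alone). There were 19 members up to 550 bp from a coding TSS and 22 intergenic summits at 450 to 500 bp.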

How the data were processed

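The authors deposited peak lists on dm6 (per the labels), with a signal value per peak from their caller and an IDR score, a measure of how well ranks repeat between replicates. Per the deposited file descriptions, the conservative and optimal sets came from both replicates and 1 further set from each. For the caller, its settings, the aligner and the scale of the signal, details were not given in the sources used. Signal served to order and describe peaks inside 1 list. A further 20 value columns of the series' files were not used.

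Genes came from the Ensembl annotation and sequence from RefSeq, both of BDGP6, which has the coordinates of dm6, and every peak ended within its arm. Summits are counted from 1. A peak was in a replicate's set when it overlapped one of its peaks by at least 1 bp. Shares have Wilson 95% intervals and differences of shares have Newcombe intervals; no test over samples was possible with 2 replicates of 1 group. Flank windows had no summit within 200 bp of their centre, and tiles are adjacent windows of 201 bp laid along eligible sequence. Named sites were the 25 strongest in both replicate sets, the 3 strongest of each kind, the 5 fullest gaps, 2 genes per list with the strongest flanking summits, and the 3 sites nearest to the limit on each side. The 13 gene lists had 6 symbols changed to the current one. The sites and lists were chosen with earlier results of these data known. Steps were tested on simulated data. Work used matplotlib 3.10.9, scipy 1.17.1, pandas 2.3.3 and numpy 2.4.6 under Python 3.11.15.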

Additional observations from a re-analysis of the deposited data

How the results depend on the processing

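No paired analysis was possible because the samples form 1 group with no contrast between groups. Alternatives moved the distance limit, the position, the genes that end a gap, the peak set and the motif window. The sets of each replicate alone leave the other replicate out. The number of intergenic summits, 812, was 276 in the stronger 50% of the peaks by signal and ran from 482 (set of replicate 2) to 636 (set of replicate 1) with 1 replicate left out. The share in both replicate sets, 44.8%, was 51.4% over 200 bp from a coding TSS, 41% in the optimal set and 94.9% in the stronger 50%, where all summits reached 95.2%. The convergent share, 19.3%, was 14.6% over 200 bp and 22.5% over 1000 bp from a coding TSS, against 22.3% and 24.3% of bases, and ran from 19.1 to 20.9% with 1 replicate left out. The share within 500 bp of a 3′ end, 16.6%, was 13.7% over 1000 bp from a coding TSS, 10.9% with protein-coding genes only (against 4.96% of bases) and 20.3% in the stronger 50%, and ran from 19.5 to 20.6% with 1 replicate left out. It was 6.77% at 200 bp and 28.1% at 1000 bp of a 3′ end. The share nearest a non-coding RNA gene, 28.2%, was 22.2% over 200 bp from a coding TSS (against 21.5% of bases), 32% over 1000 bp and 31.7% without transposable elements, an alternative chosen after seeing the data, and 28.2 to 28.9% with 1 replicate left out. It has no value where only coding genes end a gap. Flanking genes with a promoter summit, 29.7%, were 40.6% over 200 bp from a coding TSS and 22.6% in the stronger 50%, and ran from 20.7 to 28.4% with 1 replicate left out, against 23.9 and 30.1% of all coding genes. The CTCF core share, 2.83%, was 1.62% over 1000 bp from a coding TSS, 5.8% in the stronger 50% and 1.72% in windows of 50 bp, always above the flanks, and ran from 3.62 to 3.94% with 1 replicate left out. DRE, at 0.739% against 0.196% of flanks, was at 0.123% within 50 bp, below the 0.196% of flanks. The causes were not tested. Read depth is unknown, so what depth limits could not be assessed.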
